A study of Saccharomyces cerevisiae with 4 samples.

Results

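Deletions of the genes for retromer and the endosomal sorting nexins were examined in a barcode screen of budding yeast (Saccharomyces cerevisiae) for synthetic lethality with CDC102. The 10 genes were chosen by name: VPS35, PEP8 (VPS26), VPS29, VPS5, VPS17, VPS10, SNX3, SNX4, SNX41 and MVP1. All 10 were found among the 5325 deletion strains on the arrays, VPS10 under its standard name PEP1. Because the set was proposed with earlier results of these arrays known, its values are given as a description and no test was made on the set; the members enter only a fit over all strains.

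Retromer is a coat complex that retrieves membrane proteins from endosomes to the Golgi. Its cargo-binding trimer (Vps35, Vps26 and Vps29) works with a pair of sorting nexins, Vps5 and Vps17, whose BAR domains curve the membrane into tubules. Its best known cargo in yeast is Vps10, the receptor that delivers carboxypeptidase Y to the vacuole and must be returned to the Golgi. Other sorting nexins bind the endosomal lipid phosphatidylinositol 3-phosphate and sort different cargo, in part without retromer.

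Per the labels, a pool of 5896 heterozygous diploid deletion strains had its chromosomal CDC102 disrupted with natMX. It then received a centromeric URA3 plasmid with the cdc102-1 allele or with the wild-type gene. CDC102 is a synonym of PSF2, which encodes a subunit of the GINS replication complex. The sporulated pools grew for 2 days at 28 or 30 degree on minimal plates lacking uracil, with nourseothricin (Nat) to keep only haploids carrying the natMX disruption besides a strain's own deletion, or without it to keep single and double mutants together. PCR products of the strain tags, made from genomic DNA, were labelled with Cy5 where Nat was absent and with Cy3 where it was present. The 4 groups, cdc102-1 at 28 degree, cdc102-1 at 30 degree, CDC102 at 28 degree and CDC102 at 30 degree, had 1 array each, all in the same dye orientation. Each strain is 1 deletion within a pool, no label describes separate cultures, and the descriptions of the wild-type samples also name a cdc102-1 pool, so the arrays were grouped by their titles.

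Each value below is the mean deposited log2 ratio of a strain's spots minus the median strain of that array, called its level, so 0 is the median strain. The direction of the ratio is not settled by the labels. Cy5 over Cy3 is likely, since the Cy5 sample comes first there, and on that reading a higher level means relatively fewer double mutants. The ratio cannot tell a smaller share on the Nat plates from a larger share on the other plates. A level was available on all 4 arrays for 5288 strains. Deletions of essential genes were not set apart, so medians, percentages and ranks over all strains include any among them. The arrays differed in width: the SD over strains was 0.73 and 1.03 with cdc102-1 and 0.65 and 0.77 with CDC102 (28 and 30 degree), and the highest 5% of strains began at 0.75, 1.04, 0.54 and 0.58 in the same order. Named spots without a usable value numbered from 16 on the cdc102-1 array at 28 degree to 727 on that at 30 degree. Spot intensities were not used here, which leaves the signal over background unknown. Having 1 array per group limits the precision.

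The plasmid comparison asks which deletions are recovered differently when a cell depends on the mutant allele. Of the retromer genes, VPS35, PEP8, VPS29 and VPS5 had higher levels with cdc102-1 than with CDC102 at both temperatures, by 0.72 to 1.20 on the log2 scale as the mean of both temperatures. MVP1 stood with them at 0.89, SNX3 and VPS10 showed smaller differences of 0.45 and 0.33, and SNX4 and SNX41 lay within 0.15 of 0. The tags of VPS17 contradicted each other, and its mean difference was 0.01. For 7 of 10 members both cdc102-1 arrays lay above both CDC102 arrays, and for 1, SNX4, both lay below; over all strains these arrangements made up 22.2% and 19.8%. VPS10 was counted among the 7 with 0.38 on its lower cdc102-1 array against 0.34 on its higher CDC102 array. The count was 5 of 10 with quantile normalization, 6 of 9 with the second tag only and 6 of 10 with the 10 nearest strains subtracted. The share over all strains was not counted under these settings, so whether these counts stand out from it is not known.

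**Figure D1:**
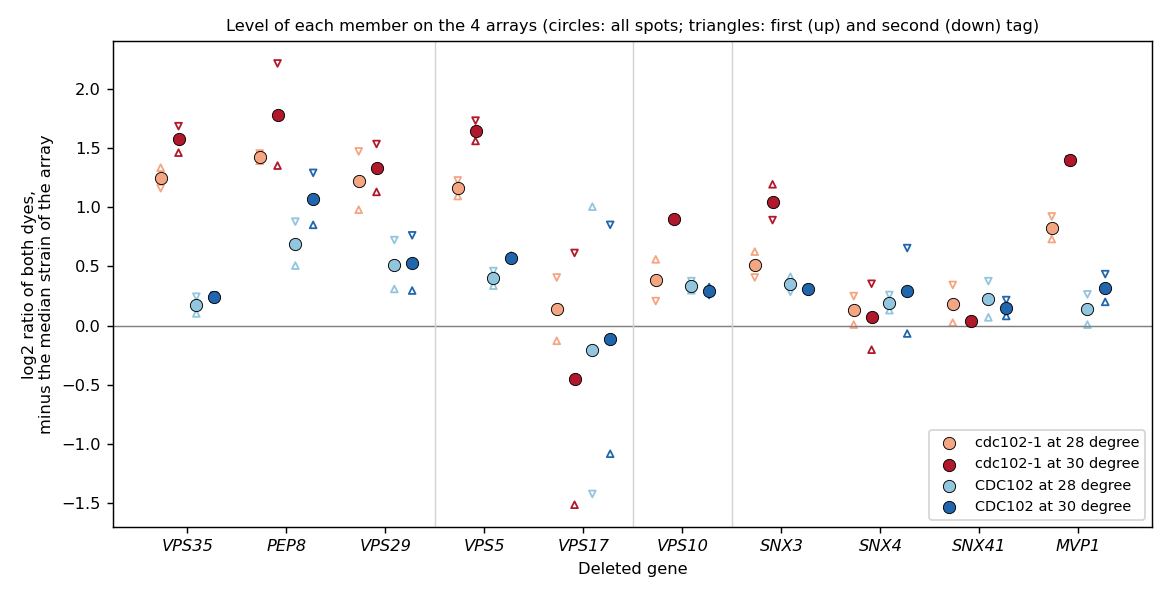
Level of each deletion (log2 ratio minus the median strain of the array) on the 4 arrays. Circles are means over all spots and triangles the means of the first and the second tag. The cdc102-1 arrays lie above the CDC102 arrays for VPS35, PEP8, VPS29, VPS5, VPS10, SNX3 and MVP1, and the tags of VPS17 lie up to 2.43 apart.

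Deletions of all 3 subunits of the cargo-binding trimer stood high with cdc102-1, and those of PEP8 and VPS29 stood high with CDC102 too. Vps35 is the scaffold of the trimer and contacts cargo. The VPS35 deletion stood at 1.25 at 28 degree and 1.58 at 30 degree with cdc102-1, and at 0.17 and 0.24 with CDC102. It was thus close to the median strain with the wild-type plasmid and far above it with the mutant, and the groups did not overlap. The difference was 1.08 at 28 and 1.33 at 30 degree, a mean of 1.20 with an SD of 0.21 over the 4 combinations of tag and temperature. That mean was the 130th highest of 5288 strains. On the CDC102 arrays 67.2% and 73.1% of strains lay below VPS35 (28 and 30 degree), and on the cdc102-1 arrays 98.4% and 97.6% did. With quantile normalization, which gives all 4 arrays the same distribution, its difference was 0.95 and 0.72.

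VPS35 was also measured densely, with 6 spots for each of its tags. These repeats had SDs from 0.032 to 0.112. The first tag gave differences of 1.23 and 1.23 at 28 and 30 degree, and the second 0.92 and 1.43. All of these exceeded the spread of the repeat spots. That spread lies within 1 array and does not measure how far arrays differ from each other.

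Pep8 (Vps26) is the arrestin-like subunit of the trimer. Its deletion stood at 1.43 and 1.79 with cdc102-1 and at 0.69 and 1.07 with CDC102 (28 and 30 degree). Each tag had 1 spot, and on the cdc102-1 array at 30 degree the tags stood apart at 1.35 and 2.22. PEP8 was high on every array, with the highest CDC102 levels of the 10 members, and its groups did not overlap. The difference was 0.73 and 0.71, a mean of 0.72 with an SD of 0.21 over tags and temperatures. The first tag of PEP8 gave 0.89 and 0.50 at 28 and 30 degree, and the second 0.58 and 0.93. Its place on the arrays hardly moved between plasmids, however: 99.1% and 98.3% of strains lay below it with cdc102-1, and 98.1% and 99.3% with CDC102. With quantile normalization its difference was 0.27 at 28 degree and -0.32 at 30 degree, so its direction depended on the scaling.

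Vps29 has a phosphoesterase-like fold and binds the far end of Vps35. The VPS29 deletion stood at 1.23 and 1.33 with cdc102-1 and at 0.52 and 0.53 with CDC102. Both values of a plasmid were nearly the same at 28 and 30 degree, and the plasmids did not overlap. The difference of 0.71 and 0.80 had a mean of 0.76 with an SD of 0.068, the smallest spread over tags and temperatures of the 10 members. Its tags had different levels, with the second higher by 0.40 to 0.49 on each array, but the plasmid difference was alike in both, from 0.67 to 0.83. VPS29 also had 6 spots per tag, with SDs of 0.023 to 0.089. Already with CDC102 94.3% and 93.6% of strains lay below it, and with cdc102-1 98.3% and 96.8% did. With quantile normalization its difference was 0.45 and 0.23.

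Of the SNX-BAR pair, only VPS5 gave a usable value. Vps5 stood at 1.16 and 1.65 with cdc102-1 and at 0.40 and 0.57 with CDC102, with no overlap. Its level was higher at 30 than at 28 degree with both plasmids. The difference of the VPS5 deletion was 0.76 and 1.07, a mean of 0.92 with an SD of 0.20, and both of its tags, with 1 spot each, showed it (0.76 and 0.77 at 28 degree, 0.97 and 1.18 at 30 degree). The share of strains below it was 88.6% and 94.9% with CDC102 and 98.2% and 97.9% with cdc102-1. With quantile normalization its difference was 0.61 and 0.31.

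For VPS17, the partner of VPS5, the level was 0.14 and -0.45 with cdc102-1 and -0.21 and -0.12 with CDC102, so the groups overlapped. The first tag gave -0.13, -1.52, 1.01 and -1.08 on the cdc102-1 arrays at 28 and 30 degree and the CDC102 arrays at 28 and 30 degree. The second tag gave 0.41, 0.61, -1.43 and 0.85 in the same order. Both tags mark the same strain, yet they lay 0.54, 2.13, 2.43 and 1.94 apart on these arrays. Over all strains the median gap between tags was 0.32 to 0.37 and the highest 10% began between 1.42 and 1.77. The SD of its plasmid difference over tags and temperatures was 1.28, so these arrays give no usable value for VPS17, and whether its deletion is like that of VPS5 was not detectable.

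**Figure D2:**
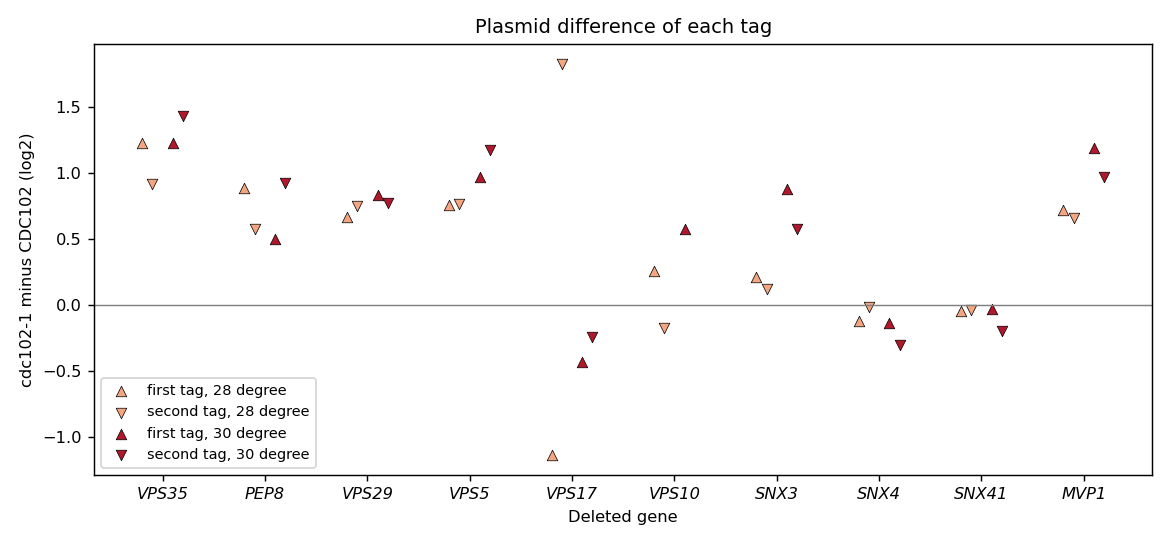
Plasmid difference (cdc102-1 minus CDC102, log2) of each tag at 28 and 30 degree, 1 symbol per tag and temperature. All symbols of VPS35, PEP8, VPS29, VPS5, SNX3 and MVP1 lie above 0, those of SNX4 and SNX41 lie between -0.30 and -0.01, and those of VPS17 run from -1.14 to 1.83. The second tag of VPS10 had no value on the cdc102-1 array at 30 degree.

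The deletion of VPS10, the carboxypeptidase Y receptor, stood at 0.38 and 0.90 with cdc102-1 and at 0.34 and 0.29 with CDC102. Only the cdc102-1 array at 30 degree was apart from the others. That value rests on the first tag alone, because the second had no value there, and at 28 degree the tags gave plasmid differences of 0.26 and -0.17. The difference was 0.05 at 28 and 0.61 at 30 degree, and the mean of 0.33 was no larger than its SD of 0.37.

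Snx3 is an adaptor that recruits certain cargo to retromer, among them the iron permease made of Fet3 and Ftr1. The SNX3 deletion stood at 0.52 and 1.04 with cdc102-1 and at 0.35 and 0.31 with CDC102. As with VPS10, the level at 30 degree with cdc102-1 stood apart and the other arrays were close together. The difference was 0.17 and 0.73, a mean of 0.45 with an SD of 0.35, and both tags were higher at each temperature (0.21 and 0.12 at 28 degree, 0.88 and 0.58 at 30 degree). VPS10 and SNX3 lay 0.098 apart as the root mean square over the 4 arrays (VPS10 with 1 tag on 1 array), and only SNX4 and SNX41 lay closer to each other.

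Mvp1 is a sorting nexin with a BAR domain that forms endosomal tubules separately from retromer. The MVP1 deletion stood at 0.83 and 1.40 with cdc102-1 and at 0.14 and 0.32 with CDC102. The plasmids did not overlap, and the array of cdc102-1 at 30 degree was the highest. The difference was 0.69 and 1.08, a mean of 0.89 with an SD of 0.24. With 6 spots per tag and SDs of 0.031 to 0.067, both tags gave it at each temperature, 0.72 and 0.66 at 28 degree and 1.19 and 0.97 at 30 degree. The share of strains below MVP1 went from 63.0% and 80.1% with CDC102 to 96.1% and 97.1% with cdc102-1. With quantile normalization its difference was 0.66 and 0.56.

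Snx4 and Snx41 belong to a recycling route of their own, which returns the exocytic SNARE Snc1 from endosomes. The SNX4 deletion stood at 0.13 and 0.07 with cdc102-1 and at 0.19 and 0.29 with CDC102. The SNX41 deletion stood at 0.18 and 0.03 with cdc102-1 and at 0.22 and 0.15 with CDC102. All 8 levels were slightly above the median strain and none reached 0.30. The plasmid difference of SNX4 was -0.07 and -0.22 and that of SNX41 -0.04 and -0.11, with SDs over tags and temperatures of 0.12 and 0.081. The root mean square distance between SNX4 and SNX41 was 0.082, the smallest among the members. That from either of them to VPS35 was 0.94.

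**Figure D3:**
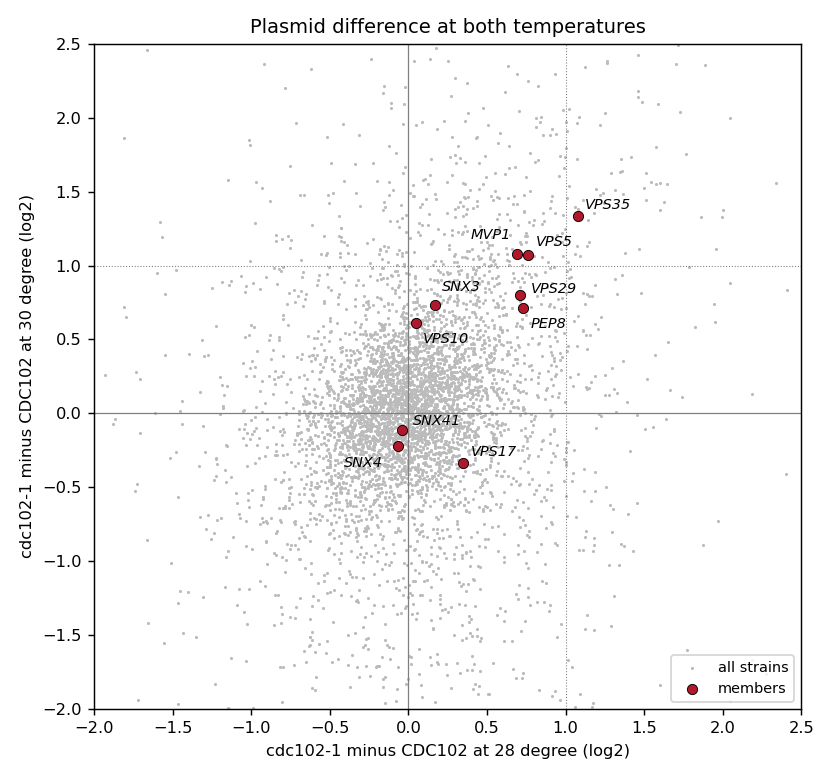
Plasmid difference (cdc102-1 minus CDC102, log2) at 28 degree on the horizontal and at 30 degree on the vertical axis, with 1 point per strain. Dotted lines mark a difference of 1, and 169 strains lie outside the drawn range. VPS35 is past 1 on both axes, VPS5 and MVP1 are past 1 at 30 degree, and SNX4, SNX41 and VPS17 are not higher at 30 degree.

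In order of the mean plasmid difference the members ran VPS35, VPS5, MVP1, VPS29, PEP8, SNX3, VPS10, VPS17, SNX41 and SNX4. No step between neighbours in that order exceeded the larger of their SDs over tags and temperatures, apart from that between VPS35 and VPS5 (1.20 and 0.92, SDs of 0.21 and 0.20). A difference of at least 1 was reached by 1 member at 28 degree, against 3.93% of all strains, by 3 at 30 degree, against 7.77%, and by VPS35 alone at both, against 1.32%. A difference of at least 0.5 at both temperatures was found for 5 members (VPS35, PEP8, VPS29, VPS5 and MVP1), against 5.75% of strains, and none was lower by that much, against 3.90%. None was lower by at least 1 at 28 degree, against 2.84% of strains, at 30 degree, against 7.92%, or at both, against 0.681%. The median over the 10 members was 0.59, and over all strains 0.01. With quantile normalization that median was 0.18, no member reached 1 at either temperature, and 2 members, VPS35 and MVP1, reached 0.5 at both. The median over all strains was -0.02 under that setting, where the shares past 1 and 0.5 were not counted.

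In limma's additive fit of plasmid and temperature over all strains, 0 of 5288 strains (0%) passed a Benjamini-Hochberg adjusted p of 0.05 for the plasmid, and 462 had an unadjusted p under 0.05. The members' adjusted p-values in that fit lay between 0.553 and 0.996. With 1 array per group, the fit has 1 residual degree of freedom, so the differences above are measured values and not called changes.

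Position was examined because VPS35, PEP8 and SNX4 lie on chromosome X with CDC102, and a deletion close to the natMX disruption is separated from it by crossing over less often. In the order of the 316 measured strains of the chromosome, PEP8 lay 17 and SNX4 33 places to one side of CDC102 and VPS35 72 places to the other. The 20 strains within 10 places of CDC102 had median levels between -0.17 and -0.02 on the 4 arrays, below the median strain. Single strains there were higher, among them JEM1, the strain next to CDC102. JEM1 was at 1.08 and 0.60 with cdc102-1 and 1.15 and 1.38 with CDC102. Others were far lower, such as SMC3 at -1.50 and -0.99 with cdc102-1 and -1.32 and -1.04 with CDC102. Both were named after their values were seen. Deletions of essential genes were not set apart among these strains or the neighbours named below. An effect of closeness to CDC102 was not tested. Of the 3 measured strains on each side of PEP8 (ZAP1, LOG1, TIM54, TDH1, IRC8 and MTR4), the highest plasmid difference was 0.34, at TDH1, below that of PEP8 itself. Their levels on the CDC102 arrays were at most 0.31, where PEP8 was at 0.69 and 1.07.

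The same was seen at VPS35, where the 6 neighbours (FAR1, SSY5, FBP26, INO1, SNA3 and DAS1) had plasmid differences from -0.08 to 0.66. Around SNX4 (NUP192, LOH1, IRC18, TAD2, KAR2 and HCA4) they ran from -0.61 to 0.37. MVP1 too stood above all 6 of its neighbours, which ranged from -0.31 to 0.38. VPS29, SNX3 and VPS10 stood above 5 of their 6, whose highest differences were 1.30, 0.68 and 2.46. The neighbours of VPS5 included higher ones, with a median plasmid difference of 0.56 and a highest one of 1.37, at GYP1. The other higher one was VAM10 at 0.93, whose gene lies inside VPS5, so it is no separate neighbour. VAM10 also enters the subtraction below for VPS5. When the 10 nearest strains were subtracted from each value, the mean plasmid difference was 1.05 for VPS35, 0.75 for PEP8, 0.79 for VPS29, 0.61 for VPS5 and 0.71 for MVP1.

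**Figure D4:**
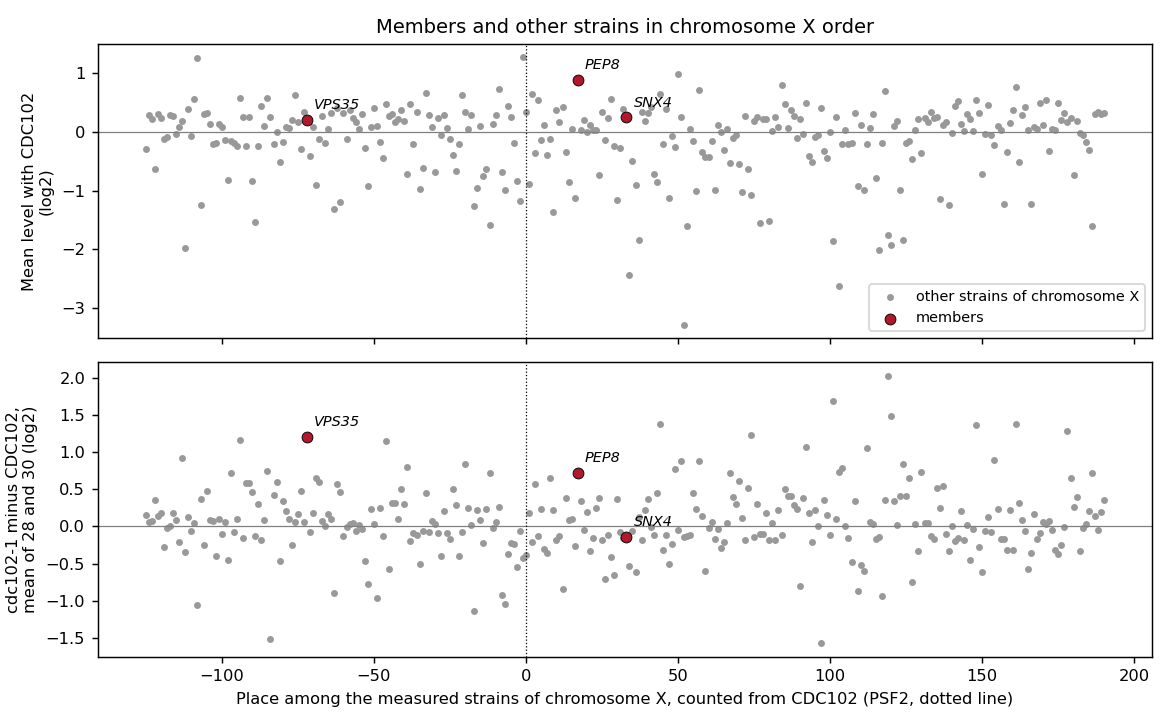
Strains of chromosome X in gene order, counted in measured strains from CDC102 (dotted line), with the mean level on both CDC102 arrays above and the mean plasmid difference below (both log2). PEP8 stands above its 6 nearest neighbours in both panels and VPS35 in the lower one.

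The temperature comparison set 30 against 28 degree with the same plasmid. It shares its arrays with the plasmid comparison, so only its own values are given. With cdc102-1 the level was higher at 30 degree for 7 of 10 members, against 51.0% of strains, and with CDC102 also for 7, against 48.7%. The largest positive differences with cdc102-1 were 0.57 for MVP1, 0.53 for SNX3, 0.52 for VPS10 and 0.49 for VPS5, where the same deletions differed by 0.18, -0.04, -0.05 and 0.17 with CDC102. The value of VPS10 sets its first tag at 30 degree against both tags at 28, and the first tag alone gave 0.34. VPS17, with its discordant tags, differed by -0.59 with cdc102-1 and by 0.09 with CDC102, where it is counted among the 7. VPS35 and PEP8 were higher by 0.33 and 0.36 with cdc102-1 and by 0.07 and 0.38 with CDC102. For PEP8 the first and second tags gave -0.04 and 0.76 with cdc102-1, so its 0.36 rests on the second tag. With CDC102 they gave 0.34 and 0.41. VPS29 differed by 0.11 and 0.01.

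No member reached a temperature difference of 1 with either plasmid, where 3.84% of strains with cdc102-1 and 2.97% with CDC102 were higher by that much. The median over the members was 0.34 with cdc102-1 and 0.08 with CDC102, against 0.01 and -0.01 over all strains. The cdc102-1 array at 30 degree was also the widest of the 4, and its part in these values was not tested. With quantile normalization the median of the members' mean temperature difference was 0.05, where the centred arrays gave 0.22. In limma's fit 0 of 5288 strains (0%) passed for temperature, 295 had an unadjusted p under 0.05, and the members' adjusted p-values were between 0.890 and 0.995.

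On the wild-type plasmid arrays, the levels compare plates without and with Nat when plasmid-borne CDC102 covers the chromosomal disruption. The mean over both temperatures was 0.88 for PEP8, 0.52 for VPS29 and 0.49 for VPS5, and between 0.19 and 0.33 for VPS10, SNX3, SNX4, MVP1, VPS35 and SNX41. VPS17, with its discordant tags, was at -0.16. The other 9 members were above the median strain on all 4 arrays, against 26.7% of strains. That share was taken over the whole pool, without setting essential genes apart. The retromer subunits were therefore not alike with the wild-type plasmid: VPS35 was at 0.21 and PEP8 at 0.88, although both belong to the trimer, and with cdc102-1 their means were 1.41 and 1.61.

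The strains with levels most like those of 4 members were found by the root mean square distance over the 4 arrays, with 4 values per strain and nothing said of shared function. Nearest to VPS35 were CHP1, ITC1 and INP51, at distances of 0.13, 0.14 and 0.16. Nearest to VPS29 were EAF5, EAF3 and SSM4 at 0.087, 0.099 and 0.12. Nearest to VPS5 were TRS85, VAM10 and RIM13 at 0.080, 0.085 and 0.087. VAM10 is also the measured strain next to VPS5 on chromosome XV, and its gene lies inside the VPS5 gene in the RefSeq annotation. Nearest to PEP8 were SYS1, DAL81 and YGR122W at 0.16, 0.18 and 0.19. No other member was among these nearest strains.

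Other genes of the same route were read from 5 lists of 32 genes, 31 of them measured on all 4 arrays (VTH2, a paralog of VPS10, is not analysed here). None passed limma's test. Among retromer and nexin cargo, the deletions of both subunits of the iron permease carried by Snx3 had the largest differences. FTR1 stood at 1.09 and 1.33 with cdc102-1 and at -0.29 and 0.25 with CDC102, a difference of 1.38 and 1.08. FET3 stood at 0.86 and 0.85 with cdc102-1 and at -0.29 and 0.06 with CDC102, a difference of 1.15 and 0.79, but its tags lay 0.63 to 1.06 apart on each array. KEX2, a Golgi protease retrieved from endosomes, had a difference of -0.15 and -0.46. The cargo list as a whole had a median difference of 0.24 over 9 strains. At both temperatures 3 of the 9 were higher and 2 lower, near the 30.4% and 27.6% of all strains.

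In the endosomal fusion list, which holds the machinery of the Rab5-like GTPase Vps21, 5 of 9 deletions had a higher level with cdc102-1 at 28 and at 30 degree and 1 a lower one, with a median difference of 0.33. VPS45, encoding the Sec1-like partner of endosomal SNAREs, differed by 0.69 and 1.42, from 0.35 and 0.40 with CDC102 to 1.04 and 1.82 with cdc102-1. VAC1 (PEP7), encoding a tether that binds phosphatidylinositol 3-phosphate, differed by 0.56 and 1.32, and VPS8, a subunit of the CORVET tether, by 0.58 and 0.52, with tags up to 2.04 apart. Among all strains, 30.4% were higher at 28 and 30 degree and 27.6% were lower.

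Of the 4 genes of the kinase that makes phosphatidylinositol 3-phosphate, the lipid bound by sorting nexins, 3 were higher at both temperatures. The share over all strains was 30.4%, and the kinase list had a median difference of 0.30. VPS38, the subunit of the endosomal form of the kinase, differed by 0.32 and 0.88, while VPS34, the catalytic subunit, differed by 0.18 and 0.44 and VPS15 by 0.07 and 0.47. Among 5 measured partners and paralogs, RCY1, an F-box protein of Snc1 recycling, differed by 0.43 and 1.40, with levels of 0.35 and 1.85 with cdc102-1. ATG20, a sorting nexin partner of Snx4, differed by 0.10 and 0.21 and YPT35 by 0.28 and 0.04. The 4 vacuolar hydrolases, among them carboxypeptidase Y, the ligand of Vps10, had a median difference of -0.29. At both temperatures 0 of them were higher and 2 lower, against 30.4% and 27.6% of all strains. The 2 lower ones were APE1, with differences of -0.66 and -0.20, and PRC1, the carboxypeptidase Y gene, with -0.14 and -0.19. The tags of PRC1 lay 0.72 to 1.83 apart, so its small differences are not firm. PEP4, the vacuolar protease A gene, named after its values were seen, had differences of -1.31 and 0.50, with opposite signs.

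**Figure D5:**
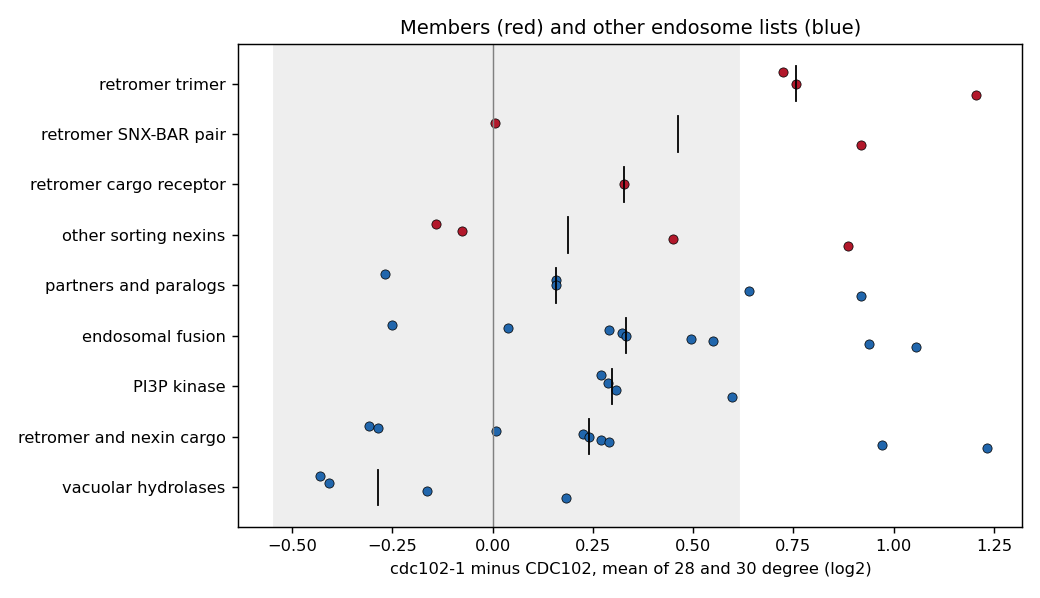
Mean plasmid difference (cdc102-1 minus CDC102 over 28 and 30 degree, log2) of each deletion, by list, with members in red and other lists in blue and a bar at each median. The grey band runs from -0.55 to 0.61 and leaves out the lowest 10% and the highest 10% of strains. All 3 deletions of the trimer, VPS5 and MVP1 lie above the band with 6 deletions of the other lists.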

How the data were processed

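The deposited values were log2 ratios of both dyes per spot. Per the labels, the authors scanned the arrays on a GenePix 4000B and analysed images with GenePix 5.1; which dye is the numerator, how background was corrected and whether dyes were normalized is not given in the sources used here. Within 0.1 percent, each ratio behind the log2 values was a multiple of 0.01, and the stand-in ratio of 1000000 was left out (10 cells). Of 22575 spots, 18794 named 1 gene, 0 several and 3781 none, and 5321 of 5325 gene identifiers matched the reference table (assembly R64), which also gave synonyms and gene order; no coordinates are printed. Spots 10971 numbers apart were taken as both tags of a strain. Spots were averaged per strain and centred on each array's strain median. Background counts used limma 3.58.1 in R 4.3.3 (1 residual and 2.30 prior degrees of freedom), tested on simulated data. P-values rest on how far the plasmid difference changed between temperatures, combined with limma's prior over all strains. No replicate arrays measured the spread, so that change counts as error whether it is technical or real.

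All members are named, with up to 3 genes of each other list by size among those with the same sign at both temperatures, and the 3 measured strains on each side of members on chromosome X. Members and lists were chosen with earlier results of these data known. No sequences were available for printing. Alternatives were other centring, averaging, tags, neighbour subtraction, size thresholds and arrays left out.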

Additional observations from a re-analysis of the deposited data

Results flagged for a closer look

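With 1 array per group, none of the following differences was tested. The plasmid difference of VPS17 pointed opposite ways at the temperatures, 0.35 at 28 and -0.33 at 30 degree, and its temperature difference was -0.59 with cdc102-1 and 0.09 with CDC102. The temperature difference was 0.52 with cdc102-1 and -0.05 with CDC102 for VPS10, 0.53 and -0.04 for SNX3, and -0.05 and 0.10 for SNX4. The values of VPS17 come with tags up to 2.43 apart, and that of VPS10 at 30 degree with cdc102-1 rests on 1 tag.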

How the results depend on the processing

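With quantile normalization the members higher by at least 1 numbered 0 at 28 degree, 0 at 30 degree and 0 at both, those higher by at least 0.5 at both numbered 2, and the median plasmid difference was 0.18; PEP8 turned to -0.02. Subtracting the 10 nearest strains left 0 members higher by at least 1 at 28 degree and 0 at both. With the second tag only, 0 reached 1 at both, the median was 0.75 and 1 was higher by 1 at 30 degree with CDC102. At a threshold of 1.5 the counts were 0 at 28, 0 at 30 and 0 at both. Shares over all strains were not counted under these settings, so the counts have none beside them. With an array left out, each plasmid difference rests on the remaining temperature, so these values repeat those of a single temperature. Members past 1 numbered 1 without either 30 degree array and 3 without either 28 degree array. Members past 0.5 numbered 5 and 7, and the median plasmid difference was 0.52 and 0.72, in the same order. The median temperature difference, which rests on the remaining plasmid, ran from 0.08 to 0.34. Chosen after seeing the data, leaving out VPS17 gave a median of 0.72 and leaving out chromosome X 0.45. The limma counts were 0 under each setting run (no centring, equal tag weights and neighbour subtraction were added there after seeing the data), with 197 to 878 strains at an unadjusted p under 0.05 for the plasmid and 109 to 680 for temperature. No paired analysis was possible because the labels give no replicate numbers to pair; the fit's temperature term already sets the plasmids side by side within each temperature. Rounding of ratios and unknown signal limit low levels.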
